A study of Homo sapiens with 12 samples.

Results

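B3GALT5 encodes a beta-1,3-galactosyltransferase, and its transcript was followed across all 12 libraries of HaCaT cells, a spontaneously immortalized line of human skin keratinocytes. It is 1 of 45372 genes in the deposited table (ENSG00000183778, GRCh38 chr21:39556442-39673137, plus strand) and was picked by its symbol, because its counts were already known to climb in cells kept in the dark and to remain low in irradiated ones. Its own levels are therefore given as a description, without a test. The irradiated groups are blue_3, blue_14 and blue_42, named by the number of sessions with 408 nm LED light at 4.6 mW per cm2, each session delivering 50 J per cm2. The dark groups dark_3, dark_14 and dark_42 are matched to those session numbers and had no light. Sessions were held 3 times a week for at most 14 weeks, with the cells in buffered saline, and all groups were the same wild-type line grown in DMEM with fetal serum. Each group has 2 libraries, lettered a and b, made from total RNA with QuantSeq 3' chemistry, which reads a tag near the 3' end of a transcript. The light dose was set to kill a share of the cells, so irradiated libraries hold RNA of survivors and their progeny, and all groups come from 1 cell line.

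Beta-1,3-galactosyltransferase 5 adds galactose in beta-1,3 linkage to a terminal N-acetylglucosamine. This makes a type 1 chain, the backbone on which fucosyltransferases and sialyltransferases build Lewis a and sialyl Lewis a, the epitope known as CA19-9. The same enzyme can extend globoside to the stage-specific antigen SSEA-3. It is best known from epithelia of gut and pancreas, where CDX factors have been described at its promoters. Several beta-1,4-galactosyltransferases compete for the same acceptor and give type 2 chains.

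The gene has several starts, and the window around the central one is shown because it is shared with a transcript on the other strand. GENCODE 29 lists 6 transcripts with 6 starts, of which 5 are coding. RefSeq (GRCh38.p14) gives promoter windows of 250 bases before and 50 bases after each listed start, and both B3GALT5 windows and the window of B3GALT5-AS1, an antisense RNA gene, matched by symbol. The central B3GALT5 start lies 118 bases from the B3GALT5-AS1 start, and the pair points in opposite directions. This central start is also among the 6 of GENCODE 29, but none of those falls in the other B3GALT5 window. In the first sequence, chr21:39612690-39612989 on the plus strand, capitals mark the 217 bases that also lie in the B3GALT5-AS1 window, chr21:39612773-39613072 on the minus strand. In the second, chr21:39642146-39642445 on the plus strand, capitals mark the letters TTTAT, the core read by CDX factors, on either strand (ATAAA as printed where the match is on the minus strand).
B3GALT5 central start: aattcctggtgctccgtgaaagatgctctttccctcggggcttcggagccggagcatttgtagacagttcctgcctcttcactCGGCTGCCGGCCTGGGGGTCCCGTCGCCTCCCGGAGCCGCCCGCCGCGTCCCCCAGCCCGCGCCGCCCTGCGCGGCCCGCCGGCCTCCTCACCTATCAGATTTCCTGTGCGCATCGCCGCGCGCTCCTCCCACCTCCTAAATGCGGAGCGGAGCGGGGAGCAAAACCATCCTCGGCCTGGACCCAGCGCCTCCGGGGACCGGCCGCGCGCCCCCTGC
B3GALT5 downstream start: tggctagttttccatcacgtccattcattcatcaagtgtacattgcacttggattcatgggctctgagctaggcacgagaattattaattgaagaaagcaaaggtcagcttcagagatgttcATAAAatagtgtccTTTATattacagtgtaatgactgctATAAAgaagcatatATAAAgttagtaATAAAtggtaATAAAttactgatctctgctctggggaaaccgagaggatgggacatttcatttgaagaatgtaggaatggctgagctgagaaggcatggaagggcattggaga

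The central window was rich in G and C (71%) with 35 CpG pairs, against medians of 58.7% and 14 over 35116 RefSeq windows. The downstream window, 29456 bases further on, had 38.7% G and C and 3 CpG pairs. Both strands of each window were searched for short motifs. TTTAT occurred 6 times in the downstream window and not in the central one, and 34.9% of all windows held it at least once, while 0.424% held it 6 or more times. The GC box GGGCGG occurred 2 times in the central window and not in the downstream one, and 45% of all windows held it. CCAAT had 1 match in the downstream window and was found in 34.6% of all windows. The AP-1 site TGANTCA had no match in either window, and was found in 7.71% of all windows. Matches of different motifs did not overlap. A match is a description of the letters, and the libraries do not show which start was used, since the tags come from 3' ends. Of the coding transcripts, 3 end at position 39662888, 1 at 39662889 and 1 at 39673137.

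B3GALT5 was low in every irradiated library and in the early dark libraries, and high in the later dark ones. After 42 sessions it had 14 counts in each of blue_42 a and b, which is 1.81 and 1.70 CPM (counts relative to library size, with TMM factors), against 101 and 103 counts, or 12.9 and 13.4 CPM, in dark_42 a and b. The 2 irradiated libraries nearly coincided, as did the 2 dark ones, and the groups stood far apart. The blue_42 mean was 1.75 ± 0.0764 CPM and the dark_42 mean 13.2 ± 0.325 CPM (SD, n = 2 each), so blue_42 was 7.51-fold lower, and the 4 ratios between single libraries lay between 7.16-fold and 7.88-fold lower. From the counts alone, an exact 95% interval ran from 5.05-fold to 11.6-fold lower. Such intervals cover counting error only, not the spread between libraries. Molecular identifiers are not mentioned in the sources used here, so even that counting error may be understated. The fitted log2 difference of -2.90 was the 6th lowest of 12878 genes tested across the table, whose median was -0.00. Groups that do not overlap are common with 2 libraries each: 20.9% of tested genes were lower in both blue_42 libraries than in both dark_42 libraries.

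**Figure D1:**
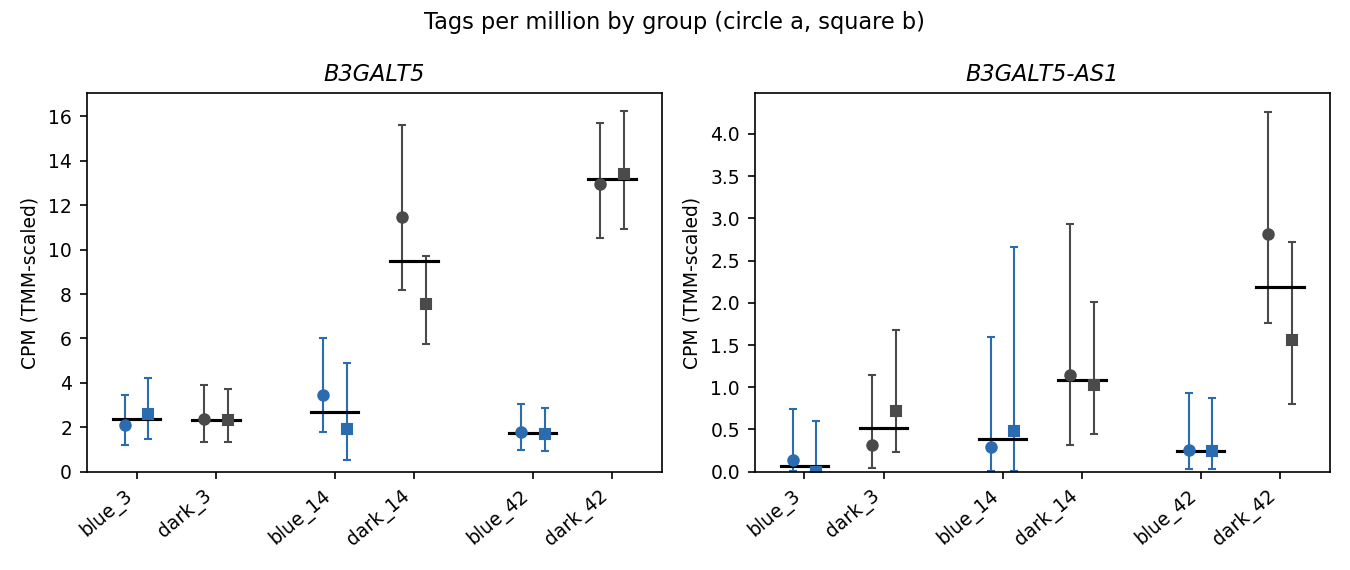
TMM-scaled CPM of B3GALT5 (left) and B3GALT5-AS1 (right) by group, with points for libraries a (circle) and b (square), whiskers for exact 95% Poisson intervals of the count, and bars for group means; irradiated groups are blue and dark groups grey. B3GALT5 lies between 1.70 and 3.45 CPM in the 6 irradiated libraries and between 7.54 and 13.4 CPM in dark_14 and dark_42.

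At the middle time the order was the same with more spread. B3GALT5 had 12 and 4 counts in blue_14 a and b, or 3.45 and 1.91 CPM, against 40 and 59 counts, or 11.5 and 7.54 CPM, in dark_14 a and b. Both irradiated libraries were below both dark ones, a separation seen downward in 16.6% of tested genes. The blue_14 mean of 2.68 ± 1.09 CPM was 3.55-fold below the dark_14 mean of 9.50 ± 2.77 CPM (SD, n = 2 each). From the counts the interval ran from 1.79-fold to 5.54-fold lower. The irradiated pair are the 2 smallest libraries of the series, at 3517401 and 2073160 counts in all, and the 4 counts of blue_14 b allow 0.520 to 4.89 CPM.

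After 3 sessions no difference was measurable at this depth. The level was 2.12 and 2.59 CPM in blue_3 a and b, each from 16 counts, against 2.38 and 2.30 CPM in dark_3 a and b, from 15 and 16 counts. The dark values lay inside the range of the irradiated pair. The ratio of counts was 0.996 with an interval of 0.589 to 1.69.

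Within the dark series B3GALT5 was higher at each later time. The means were 2.34 ± 0.0521, 9.50 ± 2.77 and 13.2 ± 0.325 CPM in dark_3, dark_14 and dark_42 (SD, n = 2 each). Dark_42 was 5.62-fold above dark_3, with a counting interval of 3.84 to 8.50, and dark_14 was 4.06-fold above dark_3, where the ratio of counts was 3.74 with an interval of 2.48 to 5.79. Both dark_14 libraries and both dark_42 libraries lay above both dark_3 libraries, which 32.9% and 32.7% of tested genes also showed. Dark_42 exceeded dark_14 by 1.39-fold, with a ratio of counts of 1.51 and an interval of 1.18 to 1.93, and 24.8% of tested genes were higher without overlap. The dark_42 libraries serve both as the partner of blue_42 and as the late dark time, so the differences of -2.90 against blue_42 and 2.48 over dark_3 on the log2 scale share those measurements.

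Within the irradiated series the level stayed in a narrow band. The means were 2.35 ± 0.333, 2.68 ± 1.09 and 1.75 ± 0.0764 CPM in blue_3, blue_14 and blue_42 (SD, n = 2 each). The blue_42 libraries were below both blue_3 libraries, as were those of 25.8% of tested genes, yet the ratio of counts, 0.752, had an interval of 0.436 to 1.29 that includes no difference. For blue_42 against blue_14 the ratio of counts was 0.610 with an interval of 0.319 to 1.21. From low to high the 6 group means ran blue_42, dark_3, blue_3, blue_14, dark_14 and dark_42, and the neighbours dark_3 and blue_3, and blue_3 and blue_14, overlapped. Set among the tested genes, for which 1 tag per transcript needs no scaling by length, 9.54% of genes had a lower mean than B3GALT5 in blue_42 and 38.1% in dark_42, so even the highest group was below the middle of the table.

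Library totals ran between 2073160 and 8183941 counts. All 14 keratinocyte markers on a fixed list were detected, with summed levels of 4668 to 7523 CPM, and the sum was lowest in dark_42, where B3GALT5 was highest: 5713 and 6106 CPM in blue_42, against 4668 and 5191 CPM in dark_42. Of 12 gut epithelium markers, 5 had no count in any library, among them CDH17, TFF3 and FABP1, and the list summed to 205.3 and 218.2 CPM in blue_42, against 202.2 and 221.3 CPM in dark_42. EPCAM, a general epithelial gene, carried most of that sum (171.6 to 249.9 CPM over the 12 libraries), followed by PHGR1 (3.59 to 57.9 CPM), and no other marker of the list passed 0.780 CPM. Markers of fibroblasts (4.28 to 15.2 CPM), leukocytes (1.87 to 40.2 CPM) and neurons (94.7 to 268.9 CPM) had summed ranges that overlapped between blue_42 and dark_42. At the middle time the fibroblast sum was 9.77 and 11.0 CPM in blue_14, against 14.6 and 15.2 CPM in dark_14, with DPT at 0 in all libraries. The neuronal sum was 142.8 and 161.2 CPM in blue_14, against 211.4 and 222.6 CPM in dark_14, with 13 of 14 markers counted in each of these libraries. The keratinocyte sum was 6813 and 7523 CPM in blue_14, against 6250 and 6292 CPM in dark_14. The gut sum was 201.7 and 205.8 CPM in blue_14, against 219.0 and 229.4 CPM in dark_14. Only the leukocyte sums overlapped there. Between the ends of the dark series, none of the 5 list sums overlapped. The leukocyte sum was 12.8 and 40.2 CPM in dark_42, against 2.38 and 1.87 CPM in dark_3. Over the 12 libraries CD74, of that list, had 0.432 to 34.5 CPM, while CD14 reached 3.52 CPM, CD68 3.15 CPM and PTPRC 0.767 CPM. In the neuronal list NEFL was the highest, at 41.6 to 162.9 CPM. The neuronal sum was 131.5 and 94.7 CPM in dark_42, against 193.3 and 196.9 CPM in dark_3. The fibroblast sum was 7.17 and 6.11 CPM in dark_42, against 4.28 and 5.04 CPM in dark_3, and the keratinocyte sum 4668 and 5191 CPM in dark_42, against 6474 and 6501 CPM in dark_3. The gut sum lay between 202.2 and 221.3 CPM in dark_42, against 238.4 to 258.1 CPM in dark_3. The part of these lists in the B3GALT5 differences was not tested. In such bulk RNA, fewer cells with the transcript and less transcript per cell cannot be told apart.

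B3GALT5-AS1 (ENSG00000184809, GRCh38 chr21:39597147-39612821, minus strand), the antisense neighbour whose start shares the central window printed above, had its highest counts in dark_42, as B3GALT5 did. It had 2 counts in each of blue_42 a and b, against 22 and 12 counts in dark_42 a and b. Blue_42 averaged 0.251 ± 0.0109 CPM and dark_42 2.19 ± 0.889 CPM (SD, n = 2 each). Both irradiated libraries were at or under 3 counts, and the ratio of counts was 8.77-fold lower in blue_42, with an interval of 3.13 to 34.0. The fitted log2 difference was -3.03, and it ran between -3.39 and -2.54 when 1 library was left out. The gene passed the filter on low counts through dark_42 alone, so its differences from dark_42 are given as a description, without a test.

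In the other libraries B3GALT5-AS1 had 1 and 0 counts in blue_3, 2 and 5 in dark_3, 1 and 1 in blue_14, and 4 and 8 in dark_14. Taking 3 counts as the limit that a count of 0 allows, the 0 of blue_3 b allows up to 0.486 CPM. Between dark_42 and dark_3 the fitted log2 difference was 2.02, with 1.58 without dark_3 a, 2.71 without dark_3 b and 1.53 without dark_42 a. After 3 sessions the ratio of counts between blue_3 and dark_3 was 0.138 with an interval of 0.00306 to 1.07, where B3GALT5 had 0.996. The light effect after 42 sessions minus that after 3 was -0.47 for B3GALT5-AS1, beside -2.89 for B3GALT5. With 1 and 0 counts in blue_3, the B3GALT5-AS1 value rests on too few counts to set the 2 genes apart. For dark_14 over dark_3 the ratio of counts of B3GALT5-AS1 was 2.01, with an interval of 0.728 to 6.02 that includes no difference. The courses of the 2 genes were not compared by a test. Over all 12 libraries B3GALT5-AS1 made up 12.8% of the counts of both genes, 60 beside 410. Its share was 8.43% in irradiated libraries (exact 95% interval 3.46% to 16.6%) and 13.7% in dark libraries (10.4% to 17.5%), intervals that overlap. The exons of B3GALT5-AS1 share none of their 2516 bases with those of B3GALT5 in GENCODE 29. How strand was handled in the counting is not stated, so reads of the 2 strands cannot be told apart for overlapping stretches.

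Setting B3GALT5-AS1 aside, edgeR's quasi-likelihood test called no neighbour of B3GALT5 between blue_42 and dark_42 at a Benjamini-Hochberg adjusted p under 0.05, a threshold that 1.23% of all tested genes passed there. Of 28 annotated genes within 500 kb, 23 are in the table, and 5 passed the low-count filter: B3GALT5-AS1, PSMG1, BRWD1, HMGN1 and GET1. BRWD1, a bromodomain protein, had a log2 difference of 0.15 between blue_42 and dark_42 (edgeR adjusted p = 0.607). HMGN1, a nucleosome-binding protein, had -0.12 (edgeR adjusted p = 0.751), and GET1, which inserts tail-anchored membrane proteins, had -0.05 (edgeR adjusted p = 0.942). PSMG1, a proteasome assembly chaperone, was called only between dark_42 and dark_3, where it fell by 0.48 on the log2 scale (edgeR adjusted p = 0.0301), against a rise at B3GALT5. That call was lost in DESeq2, with library totals only, and without dark_3 a, dark_3 b or dark_42 b. The nearest protein-coding genes on each side were too low to test, with 23 counts of SH3BGR and 4 of IGSF5 over all 12 libraries.

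**Figure D2:**
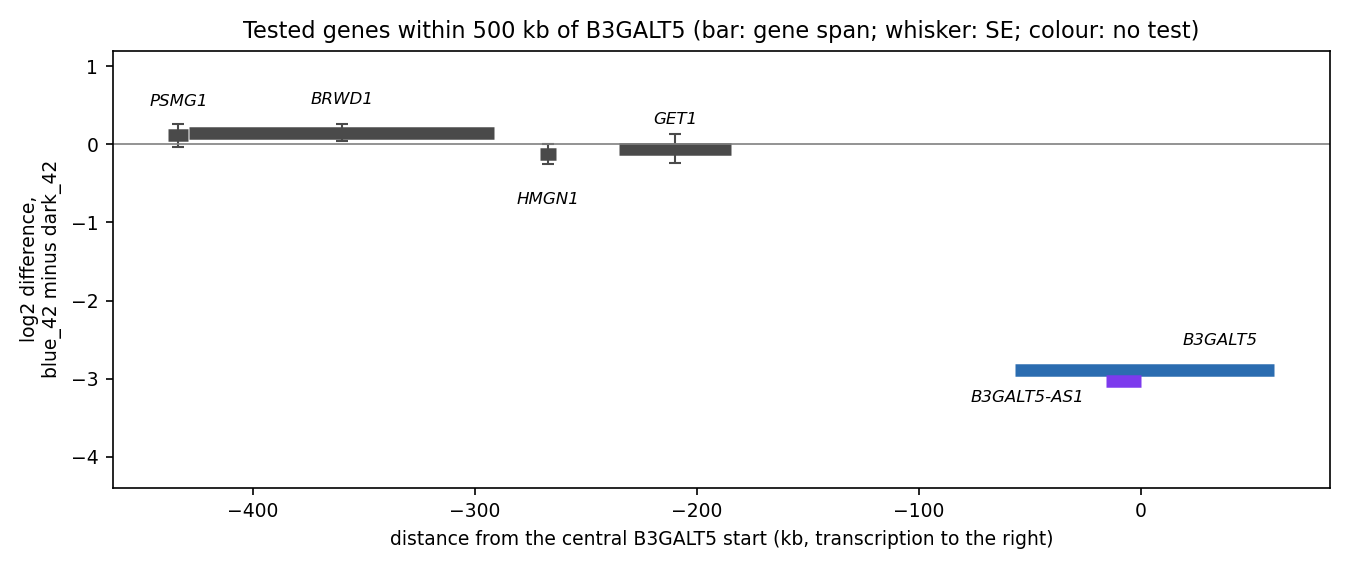
Fitted log2 difference of blue_42 minus dark_42 for B3GALT5 and the tested genes within 500 kb, placed by distance in kb from the central B3GALT5 start; bars span each gene, whiskers are standard errors for the genes with a test, and B3GALT5 and B3GALT5-AS1, in colour, carry none. B3GALT5 at -2.90 and B3GALT5-AS1 at -3.03 lie apart from the other genes, which lie between -0.12 and 0.15.

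No close relative of B3GALT5 passed edgeR's test in any comparison. Of 9 other members of the beta-1,3-galactosyltransferase list, 7 were tested, and edgeR called none in any of 6 comparisons. At an unadjusted edgeR p under 0.05 there was 1 between blue_42 and dark_42, 2 between dark_42 and dark_3 and 1 between blue_42 and blue_3. Of all 12878 tested genes, 1713, 4072 and 2835 passed that limit, in the same order. DESeq2 called B3GALT4 between dark_42 and dark_3 (1.14, adjusted p = 0.0306) and no other. It gave no adjusted p for B3GALT4, B3GALNT1, B3GALNT2 and B3GLCT between blue_42 and dark_42, so they could not be called there. The same held for the light effect after 42 sessions minus that after 3. The median log2 difference of the 7 tested relatives between blue_42 and dark_42 was -0.03, against -0.00324 over all tested genes. B3GALT4, which makes the ganglioside GM1 core, had 6.20 and 11.8 CPM in blue_42, against 9.09 and 14.6 CPM in dark_42, with overlapping groups, and differed by -0.39 ± 0.34 in log2 (SE, edgeR adjusted p = 0.699). Its difference between dark_42 and dark_3 was 1.16 ± 0.38 (SE, edgeR adjusted p = 0.0552). B3GALT6, which builds the linker of glycosaminoglycans, had 0.36 ± 0.14 between blue_42 and dark_42 (SE, edgeR adjusted p = 0.249). B3GALNT1, the globoside synthase, had -0.18 ± 0.50 (SE, edgeR adjusted p = 0.926). B3GALT1 and B3GALT2, which also make type 1 chains, had 2 and 13 counts over all libraries and were not tested. B3GALT5 had 410.

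Across 9 lists of glycan genes, 96 genes besides B3GALT5, the light comparison after 42 sessions gave a call for 1 of 76 tested genes. In the 2 earlier light comparisons none was called by edgeR, where 0.0155% of all tested genes were called after 3 sessions and 0% after 14. At an unadjusted edgeR p under 0.05 there were 8 and 4 of the 76, beside 891 and 758 of all 12878 tested genes. DESeq2 called none on these lists in either comparison. The call after 42 sessions was CEACAM6, a cell-surface glycoprotein of the carcinoembryonic antigen family that can carry Lewis epitopes. CEACAM6 had 10.1 and 6.68 CPM in blue_42, against 16.1 and 16.4 CPM in dark_42, without overlap. It fell by 0.96 on the log2 scale in blue_42 (edgeR adjusted p = 0.0152), as 0.388% of all tested genes were called lower there, and it rose in dark_42 over dark_3 by 0.87 (edgeR adjusted p = 0.00491). The light comparison's call was lost without blue_42 b (-0.69) and without dark_42 b (-0.95). It was also lost with only the libraries compared (-0.96, edgeR adjusted p = 0.0645).

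Between dark_42 and dark_3, when B3GALT5 was 5.62-fold higher in dark_42, 17 of the 76 glycan genes were called, 14 higher and 3 lower, which is 22.4% beside 17.7% of all tested genes, of which 9.47% were called higher and 8.26% lower. Among the enzymes that build the acceptor for B3GALT5, B3GNT3 rose by 0.72 (edgeR adjusted p = 0.0112) and B3GNT5, the lactotriaosylceramide synthase, by 0.63 (edgeR adjusted p = 0.00325). B3GNT2, the main polylactosamine enzyme, had -0.07 (edgeR adjusted p = 0.80). Of the beta-1,4-galactosyltransferases, B4GALT5 rose by 1.02 (edgeR adjusted p = 0.00101) and B4GALT6 by 0.92, while B4GALT3 fell by 0.40. B4GALT5 and B4GALT6 both make lactosylceramide. B4GALT1 had -0.12 and B4GALT4 -0.09, and neither was called. UGCG, which makes glucosylceramide, rose by 0.79 (edgeR adjusted p = 0.0128), and A4GALT, the globotriaosylceramide synthase, had 20 counts and was not tested. SLC35A2, the Golgi carrier of UDP-galactose, fell by 0.80 to 11.8 and 11.1 CPM in dark_42, against 21.2 and 18.7 CPM in dark_3. PGM1, a phosphoglucomutase, rose by 0.45.

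Fucosyltransferases and sialyltransferases include the enzymes that act on the type 1 chain. Of 13 tested genes of fucose transfer and supply none was called by edgeR or DESeq2 between dark_42 and dark_3. At an unadjusted edgeR p under 0.05 there were 4, beside 4072 of all 12878 tested genes. Of 17 tested genes of sialic acid transfer and supply 4 were called higher and 1 lower. Of all tested genes, 9.47% were called higher and 8.26% lower in this comparison. FUT3, which adds the Lewis fucose, had 59 counts in all and 1.02 and 0.650 CPM in dark_42, against 0 and 0.432 CPM in dark_3 (edgeR adjusted p = 0.181). FUT5, FUT6 and FUT7 had no count, and FUT1 and FUT2, which make H antigens, had -0.79 and 0.08 without a call. Of the sialyltransferases, ST3GAL6 rose by 0.60 (edgeR adjusted p = 0.0466), while ST3GAL3 (0.63), ST3GAL4 (0.50) and ST6GALNAC6 (-0.22) were not called. ST6GALNAC1, which makes sialyl Tn, rose by 1.00, to 23.2 and 20.2 CPM in dark_42, against 9.83 and 11.8 CPM in dark_3 (edgeR adjusted p = 0.000539). ST6GALNAC2 rose by 0.90 and NANP, of sialic acid supply, by 0.70, and ST6GALNAC5 fell by 1.00. Among mucin-type carriers MUC4 rose most, by 2.60, to 37.7 and 56.8 CPM in dark_42, against 7.45 and 8.07 CPM in dark_3 (edgeR adjusted p = 0.00650), but the call was lost without either dark_3 library. MUC1 rose by 1.18 and CEACAM1 by 0.92.

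**Figure D3:**
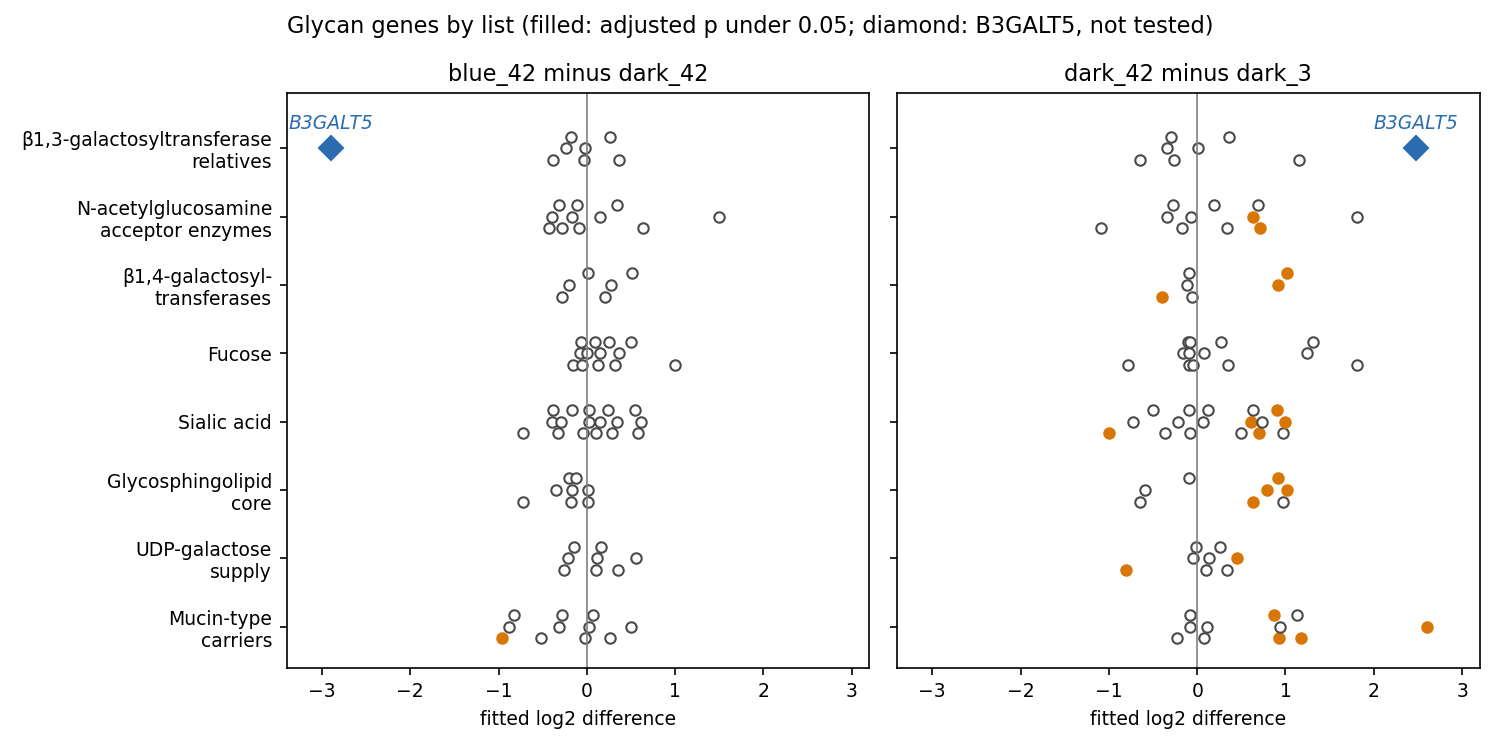
Fitted log2 differences of the tested glycan genes in 8 lists, blue_42 minus dark_42 on the left and dark_42 minus dark_3 on the right; each circle is a gene, filled where the edgeR adjusted p is under 0.05, and the diamond is B3GALT5, which has no test here. A gene on 2 lists is drawn on each. B3GALT5 lies at -2.90 on the left, where CEACAM6 at -0.96 is the called gene, and at 2.48 on the right, beside MUC4 at 2.60.

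In irradiated cells, where B3GALT5 was 0.745 of its blue_3 level in blue_42, 8 of the 76 glycan genes were called between blue_42 and blue_3, 7 higher and 1 lower, or 10.5% beside 7.78% of all tested genes, of which 4.40% were called higher and 3.39% lower. B3GNT3 (0.80), B3GNT5 (0.45), B4GALT6 (0.88), ST3GAL6 (0.85) and MUC1 (1.37) rose here as they did in the dark series. FUT8 (0.51), the core fucosyltransferase, and FUT11 (0.55) rose and ST6GALNAC4 fell by 0.61. A test of the light effect after 42 sessions minus that after 3 called CEACAM6 alone among the 76, beside 0.435% of all tested genes. B3GALT5 had -2.89 in that difference, given without a test. Of the 27 glycan calls in the 6 comparisons, 2 held under each of 20 alternatives, B4GALT5 and ST6GALNAC1 between dark_42 and dark_3, and none changed sign. DESeq2 lost 14 of the 27, among them those of B3GNT3, B3GNT5, B4GALT6 and ST3GAL6 between blue_42 and blue_3. Between dark_42 and dark_3 it also lost those of B3GNT3, B4GALT6 and ST3GAL6.

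The gut factors described at B3GALT5 promoters were at or near 0. CDX1 had no count in any library, CDX2 had 2 counts in all, and HNF4A, another gut factor, had 26. These 3 did not pass the filter, so no comparison could be made for them. With the same limit of 3 counts, a count of 0 in the largest library allows up to 0.364 CPM.

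The profile of B3GALT5 over the 12 libraries was compared with those of 12877 other tested genes, by the root-mean-square (RMS) difference of log2 CPM after centring each gene on its own mean. The 8 nearest were B3GALT5-AS1 (0.568), SYTL3 (0.633), BMP3 (0.654), FRY (0.671), LAYN (0.674), RPL13AP9 (0.704), ZFHX4 (0.711) and CDC14A (0.723), where the median gene was at 1.08. A flat profile would be at 1.06, the RMS of the B3GALT5 profile around its own mean. BMP3, a secreted member of the bone morphogenetic protein family, averaged 7.47 ± 1.80 CPM in blue_42 and 19.3 ± 5.32 CPM in dark_42 (SD, n = 2 each). SYTL3, of the synaptotagmin-like family, averaged 1.74 ± 0.632 CPM in blue_42 and 3.68 ± 0.0513 CPM in dark_42 (SD, n = 2 each). BMP3 was among the nearest 8 in 15 of 15 settings, SYTL3 in 14, B3GALT5-AS1 in 13 and LAYN in 12. FRY, RPL13AP9 and ZFHX4 were there in 7 each, and CDC14A in 4. Over all 12 libraries FRY had 60 counts, RPL13AP9 54 and ZFHX4 93. RPL13AP9 is a processed pseudogene, whose reads can be shared with its parent gene. The libraries share depth and handling with each other, and no test belongs to these distances.

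**Figure D4:**
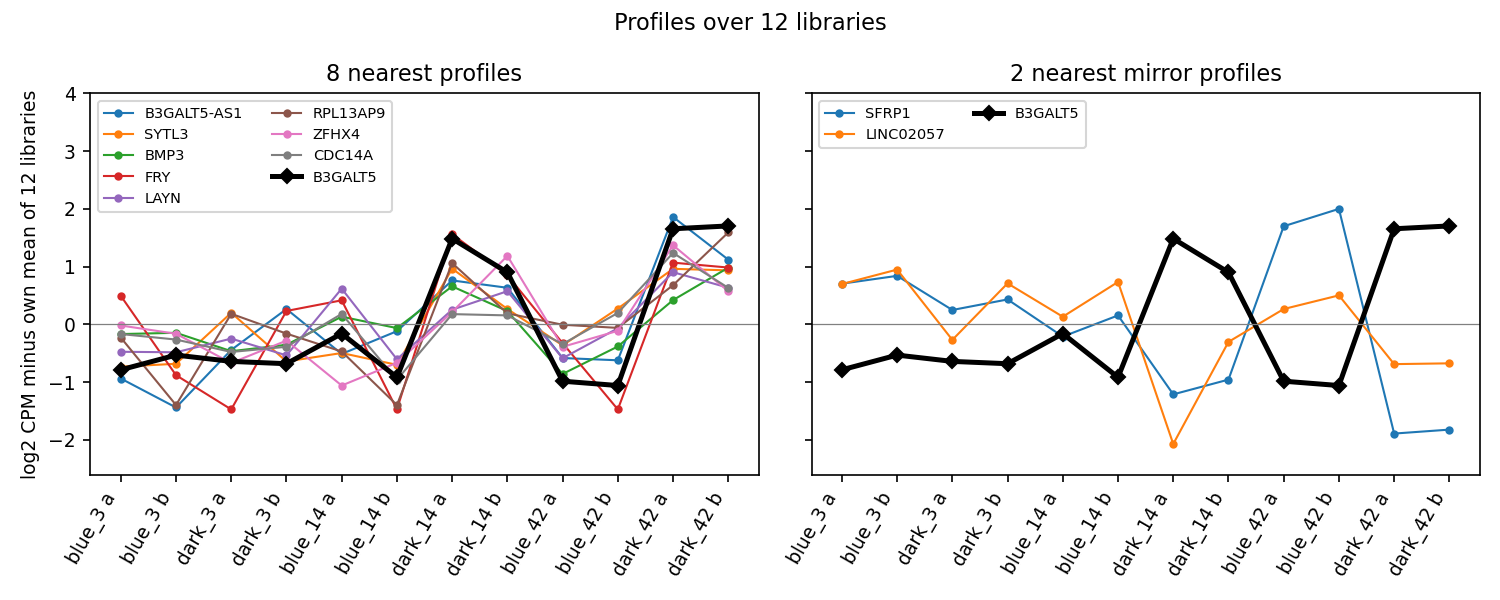
Centred log2 CPM (log2 CPM minus the gene's mean over 12 libraries) of B3GALT5 (black) with its 8 nearest profiles (left) and its 2 nearest mirror profiles (right); the lines join libraries to guide the eye. B3GALT5 is high in the dark_14 and dark_42 libraries and low in the other 8. SFRP1 lies on the opposite side of 0 from B3GALT5 in every library except blue_14 a.

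The nearest mirror profiles, taken against B3GALT5 with its sign turned, were SFRP1 (0.464) and LINC02057 (0.617). SFRP1, a secreted inhibitor of Wnt signalling, averaged 50.5 ± 7.45 CPM in blue_42 and 3.55 ± 0.130 CPM in dark_42 (SD, n = 2 each). B3GALT5 was also 1 of 58 genes, 0.450% of those tested, for which all 4 libraries of dark_14 and dark_42 lay above the other 8. Its gap was the widest of the 58: its lowest value in those 4 libraries was 2.19 times its highest value in the other 8, against 1.42 times for B3GALT5-AS1 and 1.38 times for FRY. The gap and the count are properties of the pattern for which B3GALT5 was chosen.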

How the data were processed

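The authors deposited a table of whole-number read counts per gene for 12 libraries, not normalized. STAR, featureCounts and GRCh38 are listed in the submitters' processing notes, without versions, annotation release or strand setting. B3GALT5, the gene lists and the tests were chosen with earlier results of these data known. Of 45372 rows, 12878 passed edgeR's filterByExpr at a minimum count of 10. edgeR 4.0.16 in R 4.3.3 fitted 1 robust quasi-likelihood model of 6 group means with TMM scaling, leaving 6 residual degrees of freedom. Its two-sided p-values received Benjamini-Hochberg adjustment across the 12878 genes, and log2 differences come from this fit. Profiles used log2 CPM with a prior count of 2. DESeq2 1.42.0, other scalings and filters, a replicate block and leaving out each library were alternatives. Named genes were B3GALT5, list genes called in any comparison, a preset group of relatives and partners, neighbours within 500 kb, and the nearest profiles; some genes that met this rule are not reported here, while counts of genes include them. Whether letters a and b mark separate cultures is not stated, and the spread behind each p-value may be technical. Positions of genes and transcripts follow GENCODE 29, and those of promoter windows follow RefSeq. The scripts were tested on simulated data.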

Additional observations from a re-analysis of the deposited data

Results flagged for a closer look

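CEACAM6, a surface glycoprotein among the possible carriers of the chains that B3GALT5 begins, had a light effect that differed between session numbers. After 3 sessions it had 13.6 and 12.5 CPM in the blue_3 libraries, against 9.20 and 8.64 CPM in the dark_3 libraries. After 42 it had 10.1 and 6.68 CPM in the blue_42 libraries, against 16.1 and 16.4 CPM in the dark_42 libraries. The light difference after 3 sessions was 0.55 on the log2 scale and was not called (edgeR adjusted p = 0.582). The light effect after 42 sessions minus that after 3 was -1.51 on the log2 scale (edgeR adjusted p = 0.0193). That call was lost without blue_3 b (-1.57), dark_3 a (-1.55), dark_3 b (-1.47) or blue_42 b (-1.22).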

How the results depend on the processing

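B3GALT5 kept its direction in every alternative for blue_42 against dark_42 (-2.95 to -2.85), blue_14 against dark_14 (-2.24 to -1.38, the extremes without blue_14 a and blue_14 b) and dark_42 against dark_3 (2.46 to 2.56, the highest with library totals only). After 3 sessions the light difference ran between -0.14 and 0.14, on both sides of 0. B3GALT5-AS1, given without a test, had -3.05 between blue_42 and dark_42 with only the libraries compared, and -3.39 to -2.54 without 1 library; between dark_42 and dark_3 it had 1.53 to 2.71 without 1 library. Glycan calls between blue_42 and dark_42 numbered 1, against 0 with only the libraries compared, 2 with no filter, 0 to 2 without 1 library and 3 without the 14-session libraries, an alternative chosen after seeing the data. They numbered 17 between dark_42 and dark_3 (5 to 19 without 1 library), and 8 between blue_42 and blue_3 (1 in DESeq2, 14 with only the libraries compared, 0 to 11 without 1 library). For the difference of light effects they numbered 1, and 0 to 2 without 1 library. Where a library was left out, the lone one of its group was assumed to vary like the others. The letters a and b were not taken to pair the libraries, since over 15 pairs of groups deviations correlated between -0.25 and 0.30, with 3 pairs over 0.1 (among blue_14, blue_42 and dark_42) and 3 under -0.1. A fit with the letter as a replicate block gave -2.90 for B3GALT5 between blue_42 and dark_42, and 1 glycan call there; over all genes it called 92 instead of 56 for the difference of light effects. Over all genes edgeR called 158 between blue_42 and dark_42 (100 with only the libraries compared, 420 with no filter, 24 to 235 without 1 library), 2284 between dark_42 and dark_3 (765 to 2574 without 1 library) and 1002 between blue_42 and blue_3 (615 in DESeq2, 258 to 1224 without 1 library). Counts of 4 to 16 in the low B3GALT5 libraries limit the precision of its folds.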
